A study of Mus musculus with 6 samples.

Results

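The p53 pathway was examined through 10 genes of B16F10 cells, an established mouse melanoma line. The genes are Trp53, which encodes p53, and 9 of its transcriptional targets (Mdm2, Cdkn1a, Ccng1, Bax, Bbc3, Pmaip1, Sesn1, Trp53inp1 and Phlda3). They were taken by gene symbol from a table of 27179 genes, and each symbol matched 1 row. The cells, labelled WT, were cultured for 6 h with 0.01% ozonated olive oil (OZO, 3 libraries) or with 0.01% olive oil without ozone (OLO, 3 libraries), and total RNA was sequenced. All 6 libraries come from this line and each had 1 of the oils, so none was from untreated cells. The level used here is the authors' deposited mean log2 CPM (counts scaled to a common library size) over the 6 libraries of both groups, so it carries no SD and does not give the level under either oil separately. The columns of the authors' own comparison of OZO with OLO were not used, and no difference between the oils is reported.

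p53 is a transcription factor that is kept low in unstressed cells, because MDM2 marks it for destruction by the proteasome. DNA damage, nucleolar stress and some other injuries free p53 from MDM2, and p53 then raises genes that stop the cell cycle, repair DNA or kill the cell. Mdm2 is itself a target of p53, which closes a negative feedback loop. p53 also has a place in the study of ferroptosis, since it can lower transcription of the cystine transporter gene Slc7a11. It recognises DNA as a pair of decamers, each made of purines, a C, a pair of A or T bases, a G and pyrimidines.

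Because the members were listed as p53 and its targets, this binding motif was looked for in the RefSeq promoter windows of GRCm38.p6. These windows run from 250 bases before to 50 bases after a start site. Windows were searched for 8 of the 10 genes, all but Trp53inp1 and Pmaip1. A decamer without a mismatch to the p53 consensus lay in 6 of the 8 genes, at 7 places. The pattern reads the same on both strands, so 1 search covered both. Each match is printed on the strand of its gene, 5′ to 3′, with 15 bases on either side, and the capitals mark the decamer.
Trp53 (chr11:69580269-69580308, plus strand): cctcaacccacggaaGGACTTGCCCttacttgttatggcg
Mdm2 (chr10:117710920-117710959, minus strand): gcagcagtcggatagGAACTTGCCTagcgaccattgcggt
Cdkn1a, distal match (chr17:29090891-29090930, plus strand): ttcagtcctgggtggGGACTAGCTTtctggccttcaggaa
Cdkn1a, proximal match (chr17:29090913-29090952, plus strand): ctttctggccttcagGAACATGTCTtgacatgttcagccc
Ccng1 (chr11:40755447-40755486, minus strand): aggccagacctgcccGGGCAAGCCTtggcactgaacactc
Bax (chr7:45467075-45467114, minus strand): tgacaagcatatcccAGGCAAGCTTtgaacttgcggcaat
Sesn1, downstream start (chr10:41887251-41887290, plus strand): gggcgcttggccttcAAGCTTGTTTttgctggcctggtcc

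Among all 27025 genes with a RefSeq window, 2582 genes (9.55%) held such a decamer, and among the 15254 of them with reads in these cells 8.80% did. By window, the decamer was in 6 of the members' 12 windows and in 8.36% of all 32851 windows. The first base of the matches lay between 51 and 201 bases before the start site. In Trp53 it lay 75 bases before the start, and in Mdm2 it lay 186 bases before it. In Ccng1 and Bax the distances were 185 and 201 bases. For Sesn1 the match stood 173 bases before the downstream of its 2 starts, and the upstream start had none.

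Cdkn1a had both of its decamers in the window of its upstream start, 73 and 51 bases before it, with 12 bases between them. A pair of decamers without mismatch and at most 13 bases apart was present in 0.0731% of all windows. When 1 mismatch was allowed in the partner, pairs were found in 3 of the 8 member genes, Cdkn1a, Ccng1 and Bax, against 1.24% of all genes. In Cdkn1a the nearest partner of the proximal decamer, TGACATGTTC (chr17:29090938-29090947), lay directly downstream without a gap. The partner of Ccng1, AGACCTGCCC (chr11:40755472-40755481), lay directly upstream of the decamer without a gap, and that of Bax, AAGCATATCC (chr7:45467101-45467110), lay upstream with 1 base between. The mismatch of these partners fell on the first base in Cdkn1a, on the A or T pair in Ccng1 and on the G in Bax. The window of the downstream start of Cdkn1a, all 3 windows of Bbc3 and the window of Phlda3 held no decamer. For the windows of Bbc3 and Phlda3, unlike the other members' windows, the downstream end of the window was not found whole in a GENCODE M21 transcript of the gene. The Phlda3 window does reach into the annotated gene, which starts at 135766119, while the window ends at 135766134. These matches are letters in a window and were not measured as binding, and the members had been chosen as p53 targets.

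**Figure D1:**
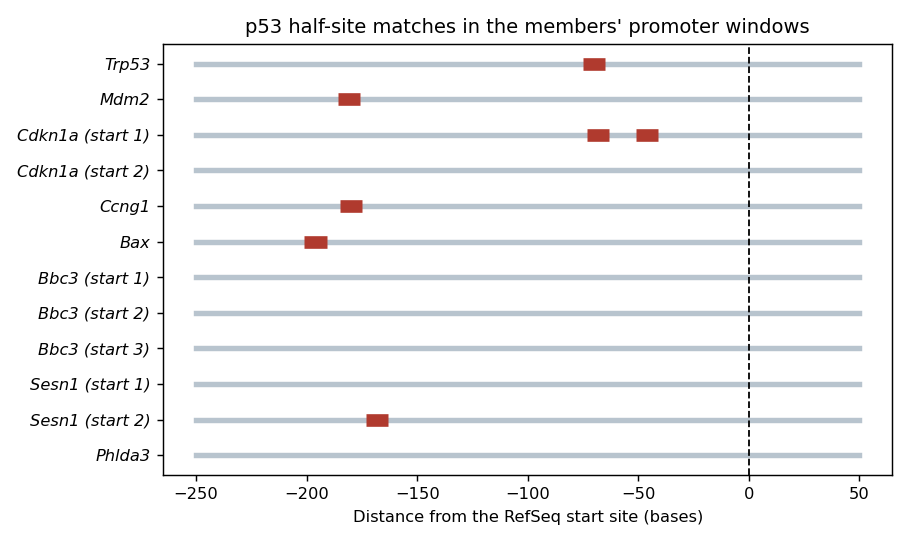
Each grey line is 1 RefSeq promoter window of a p53 pathway gene, plotted by distance from the start site in bases, and each red block is a p53 decamer without mismatch. The 7 matches lie 51 to 201 bases before the start in 6 genes, and Bbc3 and Phlda3 have none.

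Most members were well expressed in B16F10 cells, and 1 was close to silent. Of the 10 genes, all of them protein-coding, 9 had at least 1 CPM. The share was 43.7% of all 27179 genes of the table and 56.2% of the 21154 genes with reads. Among protein-coding genes with reads it was 63.6%. The members' median was 5.58 log2 CPM, beside 1.45 for genes with reads and 3.16 for the 17605 protein-coding genes among them. Levels ran from 9.32 log2 CPM for Ccng1 to -5.03 for Pmaip1. The geometric mean of the library sizes, recovered from the genes without reads, was 19641946 reads, so 1 CPM stood for 19.6 reads per library. At this depth counting error (95%) was at most 4.43% of the level for the 8 members from Ccng1 down to Sesn1 and 9.99% for Bbc3. The spread between cultures cannot be seen in a mean over all of them, so which neighbours in an order differ was not tested.

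**Figure D2:**
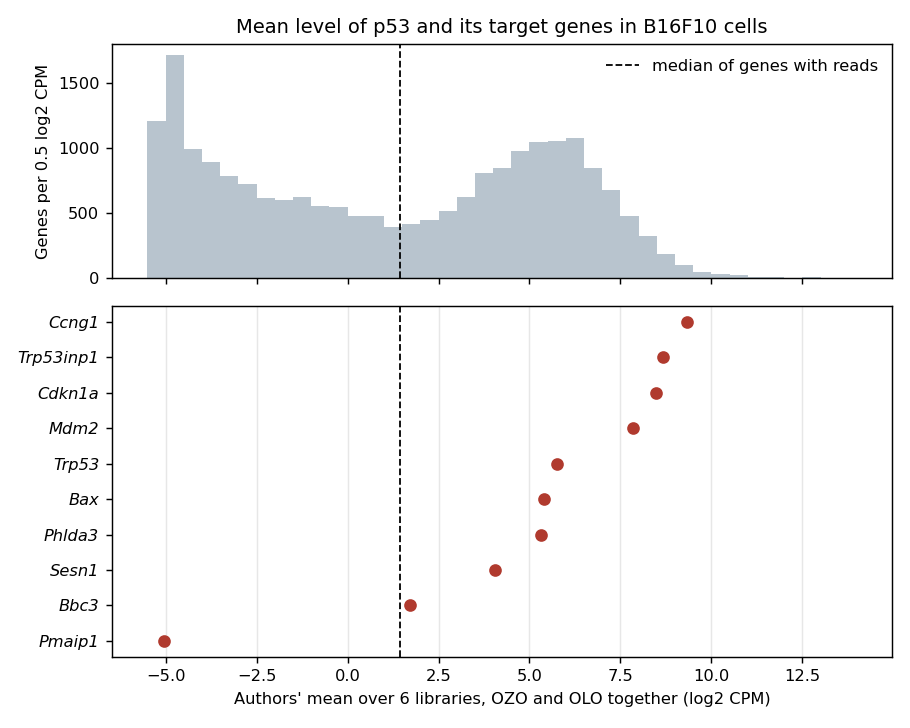
The upper panel counts the 21154 genes with reads by their mean level in log2 CPM, and the lower panel gives the same quantity for each p53 pathway gene, with the dashed line at the median of genes with reads (1.45). Ccng1, Trp53inp1, Cdkn1a and Mdm2 lie in the right tail, Bbc3 (1.72) sits next to the median and Pmaip1 (-5.03) at the left end.

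Trp53 (ENSMUSG00000059552), on chromosome 11 of GRCm38 from 69580359 to 69591873 on the plus strand, had a mean level of 5.75 log2 CPM, which is 54.0 CPM or about 1059 reads per library. This placed it at percentile 79.6 of the genes with reads. With the longest annotated transcript of 3275 bases, the level per length was 16.5 CPM per kb. Its mRNA was thus readily detected in these libraries, while p53 activity, which is set largely at the level of the protein, was not measured. The relatives of p53 were near absent. Trp63, a factor of stratified epithelia, had -4.18 log2 CPM, from a total of 6 to 52 reads over all 6 libraries, and Trp73 had -4.12 log2 CPM, from 5 to 67 reads.

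Mdm2 and Ccng1 act back on p53. Mdm2 (ENSMUSG00000020184), the ubiquitin ligase that degrades p53, lies on chromosome 10 from 117688875 to 117710758 on the minus strand. Its mean was 7.84 log2 CPM (229 CPM), percentile 96.0, and 72.8 CPM per kb. Per length this was 4.42 times the level of Trp53 with the longest transcripts, 3.37 times with the union of exons and 2.42 times with the shortest coding transcripts. Ccng1 (ENSMUSG00000020326) encodes cyclin G1, which recruits a phosphatase to MDM2, and lies on chromosome 11 from 40748552 to 40755311 on the minus strand. It had the highest CPM of the 10 genes, with 9.32 log2 CPM (639 CPM, about 12547 reads per library), rank 140 among the genes with reads. Its annotation holds the same length of 3512 bases by each of the 3 measures, which gave 182 CPM per kb throughout.

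Cdkn1a (ENSMUSG00000023067), the gene of the cyclin-dependent kinase inhibitor p21, is the arrest arm of the pathway. It lies on chromosome 17 from 29090976 to 29100727 on the plus strand and had a mean of 8.47 log2 CPM (354 CPM), percentile 98.0. Per length it stood at 170 CPM per kb with the longest transcript, next to the 182 of Ccng1. The order of these 2 genes turned with the length used, from 0.547 times Ccng1 with the union of exons to 2.11 times with the shortest coding transcript. A short gene model of uncertain status on the opposite strand, AC167363.2, shares 273 bases with its exons (7.68%). How strand was treated in counting is not given in the sources used here.

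The genes of the cell death arm spread over the widest range. Bax (ENSMUSG00000003873), on chromosome 7 from 45461697 to 45466898 on the minus strand, encodes the pore-forming protein of the outer mitochondrial membrane and had 5.40 log2 CPM (42.3 CPM, percentile 76.1). Its exons share 192 bases (12.2%) with the gene model Gm45808 on the same strand, so reads there cannot be assigned to Bax alone. Bbc3 (ENSMUSG00000002083) encodes PUMA, a BH3-only protein that frees or activates BAX, and lies on the same chromosome from 16308393 to 16318205 on the plus strand. It had 1.72 log2 CPM (3.29 CPM), or about 64.2 reads per library, which is percentile 51.1. Per length with the longest transcripts, Bax stood at 38.4 and Bbc3 at 1.82 CPM per kb, a ratio of 21.2. The ratio was 17.3 with the union of exons and 23.4 with the shortest coding transcripts. Those shortest models have 222 bases for Bax and 405 for Bbc3, and raised both levels together, to 190 and 8.13 CPM per kb. The similar ratio is therefore no check on the level of either gene.

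Pmaip1 (ENSMUSG00000024521), on chromosome 18 from 66458533 to 66465565, encodes NOXA, another BH3-only protein, which neutralises MCL1. Its deposited mean of -5.03 log2 CPM corresponds to exactly 1 read in the 6 libraries together, since 1 read in a single library is the only set of whole counts that gives this mean (matched within 1e-06). An exact Poisson interval (95%) around 1 read runs from 0.0253 to 5.57 reads, and the upper end is 0.0473 CPM over at least 117851678 reads. The interval covers counting error only. BAX and PUMA mRNA were thus both detected in these cells, and NOXA mRNA was at the limit of detection. The library of that read, and so the oil, cannot be told from the mean.

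Sesn1, Trp53inp1 and Phlda3 belong to the stress and growth arm. Trp53inp1 (ENSMUSG00000028211), on chromosome 4 from 11156431 to 11174379 on the plus strand, encodes a stress protein with roles in cell death and autophagy. It had 8.67 log2 CPM (408 CPM, percentile 98.5) and 75.1 CPM per kb. Phlda3 (ENSMUSG00000041801), on chromosome 1 from 135766119 to 135769136 on the plus strand, encodes a protein that keeps AKT from the membrane, and had 5.33 log2 CPM (40.1 CPM, percentile 75.4) and 28.0 CPM per kb. Sesn1 (ENSMUSG00000038332), on chromosome 10 from 41809935 to 41908424 on the plus strand, encodes a sestrin, which restrains mTORC1, and had 4.06 log2 CPM (16.7 CPM, percentile 63.9). Per length Sesn1 stood at 4.37 CPM per kb, and Trp53inp1 was 17.2 times as high with the longest transcripts, 15.1 times with the union of exons and 11.8 times with the shortest coding transcripts.

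Ordered per length with the longest transcript, the members ran from Ccng1 (182 CPM per kb) over Cdkn1a (170), Trp53inp1 (75.1), Mdm2 (72.8), Bax (38.4), Phlda3 (28.0), Trp53 (16.5), Sesn1 (4.37) and Bbc3 (1.82) to Pmaip1. The union of exons gave the same order. With the shortest coding transcript Cdkn1a came first and Bax, whose shortest model has 222 bases, second, Trp53 (30.5 CPM per kb) passed Phlda3 (28.0) and Bbc3 passed Sesn1. Ccng1, Cdkn1a, Trp53inp1, Mdm2 and Bax stood above Trp53 by each of the 3 lengths, and Sesn1, Bbc3 and Pmaip1 stood below it. Leaving out Pmaip1, the level of Ccng1 was 100.2 times that of Bbc3 by the longest transcript, 117 times by the union of exons and 22.4 times by the shortest coding transcript. The last ratio rests on a Bbc3 model of 405 bases, while Ccng1 keeps its 3512 bases.

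**Figure D3:**
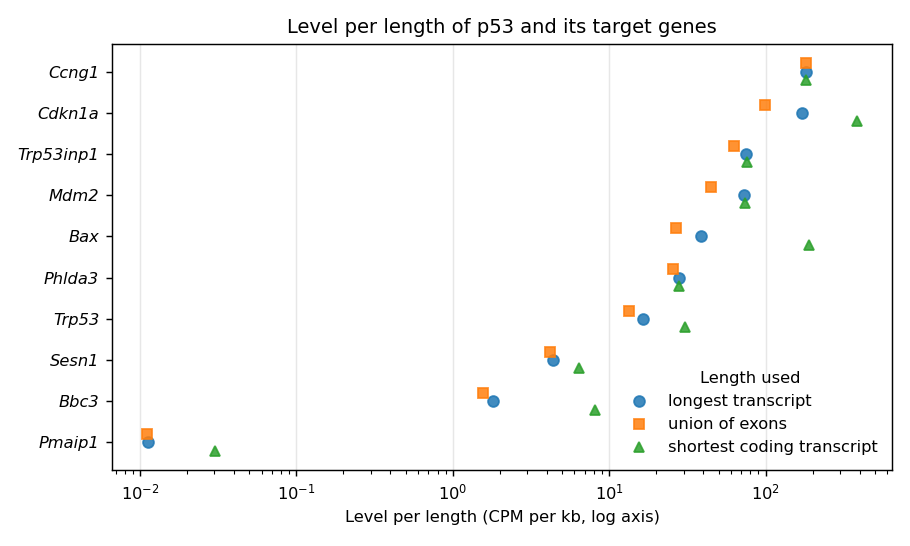
Level per length in CPM per kb (log axis) of the 10 p53 pathway genes, with 1 symbol for each transcript length used. Ccng1 stays at 182 by every length, while Bax moves from 38.4 to 190 and Bbc3 from 1.82 to 8.13 when the shortest coding transcript replaces the longest.

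Beyond the members, 25 further p53 target genes were all detected, and their median was 5.14 log2 CPM. Of these, 21 (84.0%) had at least 1 CPM, against 56.2% of all genes with reads. The highest were Ephx1 with 7.76 log2 CPM, an epoxide hydrolase gene, Zmat3 with 7.53, which encodes an RNA-binding zinc finger protein, and Ei24 with 7.18, which encodes a membrane protein of the endoplasmic reticulum linked to autophagy. The lowest were the death receptor gene Fas with -3.44 log2 CPM, the junction gene Perp with -1.92 and the stress cytokine gene Gdf15 with -0.79. Tnfrsf10b, the mouse TRAIL receptor gene, was the remaining gene under 1 CPM, with -0.25 log2 CPM, and was named after its value was seen. Per length, the median of this list was 11.0 CPM per kb, against 33.2 for the members and 1.87 for genes with reads. The p53 decamer was present in the windows of 5 of the 18 genes of this list that had one (27.8%), against 9.55% of all genes.

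Of 19 regulators and relatives of p53, 18 had reads, with a median of 6.05 log2 CPM and 13.7 CPM per kb over the list. At least 1 CPM was reached by 16 (84.2%), against 56.2% of all genes with reads. The highest were the acetyltransferase gene Ep300 with 8.12 log2 CPM, Usp7 with 8.05, whose product removes ubiquitin from MDM2 and p53, and the damage kinase gene Atm with 7.17. Mdm4, which encodes the partner of MDM2, had 7.07 log2 CPM and was named after its value was seen. The lowest with reads were Trp63, Trp73 and Ppp1r13l, an inhibitor of p53, with 2.75 log2 CPM. Cdkn2a had 0 reads in the 6 libraries, which allows a level of up to 0.0255 CPM (3 reads over all libraries, about a one-sided 95% limit, unlike the two-sided interval given for Pmaip1). The locus encodes p16INK4a and ARF, and ARF is the protein that holds MDM2 away from p53. The decamer lay in the windows of 2 of the 18 regulators with one (11.1%), near the share of 9.55% over all genes.

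**Figure D4:**
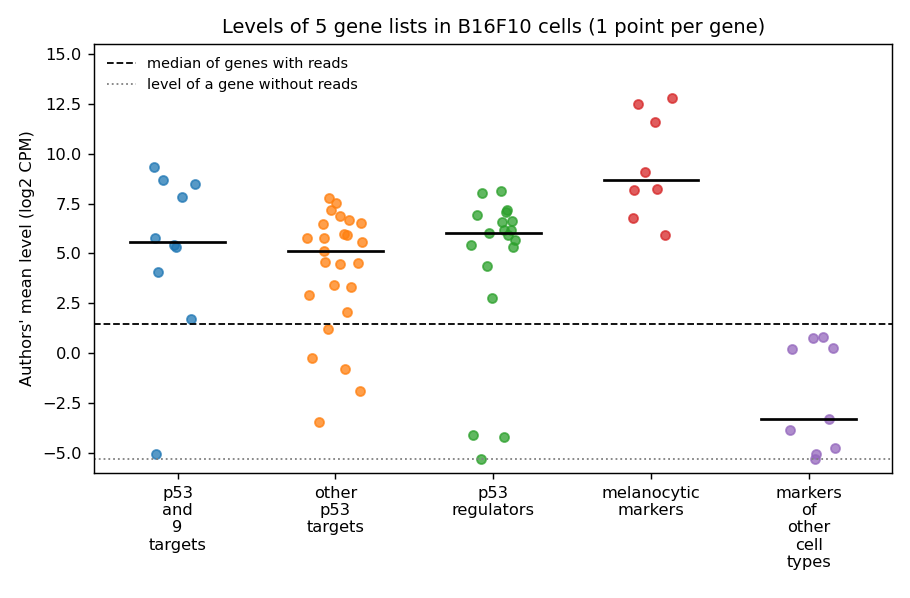
Each point is the mean level of 1 gene in log2 CPM, black bars are list medians, the dashed line is the median of genes with reads (1.45) and the dotted line the level of a gene without reads. The p53 members, the further targets and the regulators have medians of 5.58, 5.14 and 6.05, and Pmaip1 is the 1 member below 0.

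The labelled cell type was checked with its markers. All 8 melanocytic markers were present, from 5.93 log2 CPM for Mc1r to 12.78 for Dct. Of 9 markers of leukocytes, keratinocytes, endothelium and fibroblasts, none exceeded 0.84 log2 CPM, 5 had under 1 CPM and Krt5 had no read. In bulk RNA, fewer expressing cells and less RNA per cell cannot be told apart, and this holds for each level given here.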

How the data were processed

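RNA of B16F10 cells was sequenced by the authors (3 OZO and 3 OLO libraries). Per the labels, reads were aligned to mm10 with HISAT2 (version 2.1.0) and counted with featureCounts (2.1.1), and limma-voom (limma 3.58.1) was used by the authors for differential expression. The deposited log2 values used here are the mean log2 CPM over all libraries, to which voom adds 0.5 reads per count. The table also holds 5 columns of the authors' own comparison (log2 fold change, moderated statistic, p-value, adjusted p-value and log odds), which were not used. The planned tests needed values of single libraries, so no test was made.

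Genes without reads (6025) share the lowest mean, from which the geometric mean library size and each gene's geometric mean of reads plus 0.5 were recovered. The depth of single libraries is unknown. This step was tested on simulated data. Levels per kb (1000 bases) used GENCODE M21 (GRCm38), which held 23821 of 24065 Ensembl identifiers. Named genes were the 10 members and, of each list, the 3 highest, the 3 lowest with reads and those without reads. Members and lists were chosen with earlier results of these data known. Python 3.11.15, numpy 2.4.6, pandas 2.3.3 and scipy 1.17.1 were used.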

Additional observations from a re-analysis of the deposited data

How the results depend on the processing

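No paired analysis was possible because the value used is 1 mean over all libraries. For the same reason another test, another normalization, a filter or pseudocount per library, a replicate block and leaving out each library were not run. The members' median level was 33.2 CPM per kb with the longest transcript, 26.3 with the union of exons and 52.2 with the shortest coding transcript. Taking off the 0.5 reads that voom adds left the median at 48.1 CPM, and the levels of the members other than Pmaip1 moved by less than their counting error. Pmaip1 went from 0.0306 to 0.00511 CPM, so most of its deposited mean is the added 0.5 reads. The number of members above the median gene was 9 among genes with reads and among all genes, 8 among protein-coding genes with reads and by level per length, and 7 among genes with at least 1 CPM. Depth limits Pmaip1 and Cdkn2a, for which 1 and 0 reads were counted.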
